A study of Rattus norvegicus and Bos taurus with 6 samples.

Results

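Schwann cells, the glia of peripheral nerve, were sought in the single-nucleus RNA-seq data through 8 genes tied to Schwann cells and nerve: Scn7a, Sox10, Cdh19, Slitrk6, Gal3st1, Ttyh1, Cadm2 and Chl1. They were chosen by name, with earlier results of these data known, and matched by symbol in any case. All 8 were found in every library, among 25629 genes in the 10x Genomics file, 38697 genes in the rat Parse files and 36075 genes in the cow Parse file. The study tested nuclei isolation from frozen fat, and each of its 6 conditions had 1 library, so the conditions could be set side by side but not tested against each other. The 5 rat libraries came from male SS/HsdMcwiCrl (Dahl SS) rats housed at 22 °C. The sixth came from the flank fat of female Holstein cattle, which were lactating by the paper's methods. The rat depots were mesenteric perivascular fat (mesPVAT, on 10x 3' v3 and again on Parse Evercode WT v3), retroperitoneal fat (RP fat), thoracic aortic perivascular fat (taPVAT) and subscapular brown fat (BAT), the last 3 on Parse only. All tissue was labelled normal and had been snap frozen. Ages, and how many animals went into a library, are not given in the labels. The 10x library was batch 1 and all Parse libraries batch 2. By the paper's methods, nuclei for 10x were isolated with an earlier protocol and sorted. Those for Parse came from the modified protocol and were fixed. Platform, batch and isolation therefore cannot be told apart between 10x and Parse. Within Parse, the paper spun white fat of both species faster than taPVAT, and passed only cow samples through a further, finer filter. These steps cannot be told apart from depot or species.

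Schwann cells ensheath axons, and those that wrap a single axon build a myelin sheath while others hold bundles of thin axons without myelin. Their lineage is set by the transcription factor Sox10, and myelin-forming cells make large amounts of sheath proteins such as that encoded by Mbp. Fat is reached by sympathetic and sensory fibres, most of them thin and unmyelinated, and brown fat depends on its sympathetic supply for heat production. The cell bodies of these neurons lie in ganglia outside the fat, so nuclei isolated from fat can include glia of the nerve without the neurons they serve.

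The 8 genes lie apart in the rat genome (RefSeq, GRCr8) and differ widely in length, which bears on nuclear RNA because most of it is intronic. Scn7a (ENSRNOG00000029342) spans chr3:71743873-71846454 and Sox10 (ENSRNOG00000011305) spans chr7:112605721-112615097, a gene of 9377 bases. Cadm2, at chr11:17994856-18971895, is the longest at 977040 bases, and its identifier is ENSRNOG00000030840 in the 10x file but ENSRNOG00000074750 in the rat Parse files. Chl1 spans chr4:137847648-138062077, Cdh19 chr13:28450361-28561932, Gal3st1 chr14:83094265-83109992, Ttyh1 chr1:79125564-79144137 and Slitrk6 chr15:93977812-93984431. Since Sox10 is both a member and a DNA-binding factor, the promoters of the members (250 bases before to 50 bases after the RefSeq start) were searched on both strands for the SOX core motifs ACAAAG and ACAATG, which do not overlap each other. RefSeq promoters were matched for 7 of the 8 genes, all but Sox10. Of these, 2 held a motif, Slitrk6 with ACAATG on the reverse strand at -245 and Chl1 with ACAAAG on the reverse strand at -111. Among all 33469 rat promoters of this length, 29.1% held either motif, 18.8% ACAAAG and 13.2% ACAATG, which is near the share of the members, and nothing is drawn from the motifs. The 2 promoters with a motif are shown with the motif in capitals, beside that of Scn7a, the leading gene of the BAT cluster described below, which held neither. They are on the minus strand at chr15:93984382-93984681 (Slitrk6) and chr3:71846235-71846534 (Scn7a) and on the plus strand at chr4:137847645-137847944 (Chl1).
Slitrk6: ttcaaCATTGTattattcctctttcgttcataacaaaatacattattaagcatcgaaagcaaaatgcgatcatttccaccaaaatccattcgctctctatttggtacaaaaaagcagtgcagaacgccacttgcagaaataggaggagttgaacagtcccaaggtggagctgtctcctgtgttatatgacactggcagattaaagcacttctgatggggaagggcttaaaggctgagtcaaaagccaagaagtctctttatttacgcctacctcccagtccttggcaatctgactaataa
Chl1: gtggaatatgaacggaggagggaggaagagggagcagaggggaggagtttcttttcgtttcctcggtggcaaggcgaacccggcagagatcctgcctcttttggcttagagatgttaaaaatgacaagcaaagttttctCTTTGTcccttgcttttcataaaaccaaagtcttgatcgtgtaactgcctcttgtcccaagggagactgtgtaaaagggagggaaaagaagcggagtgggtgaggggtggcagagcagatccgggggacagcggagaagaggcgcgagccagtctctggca
Scn7a: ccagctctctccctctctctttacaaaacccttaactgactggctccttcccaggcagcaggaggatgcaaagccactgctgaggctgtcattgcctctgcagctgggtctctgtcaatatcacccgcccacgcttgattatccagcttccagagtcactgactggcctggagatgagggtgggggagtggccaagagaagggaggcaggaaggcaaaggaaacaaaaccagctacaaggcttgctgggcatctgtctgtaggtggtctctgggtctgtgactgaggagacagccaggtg

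The depth differed widely between libraries. Nuclei numbered 5887 in the 10x mesPVAT library, 3028 and 2805 in the Parse libraries labelled mesPVAT and RP fat, 2297 in cow WAT, 2699 in BAT and 2708 in taPVAT, and no barcode was shared between any pair of libraries. On Parse, the deepest nucleus had 41374 UMIs under the mesPVAT label and 5611 UMIs under the RP fat label. The study's text gives the opposite order for both depots, so the labels of these Parse libraries are in doubt, and every statement that sets one against the other, or either against 10x, rests on the labels as deposited. The median nucleus held 161, 346, 213, 3530, 1706 and 1246 UMIs (transcripts), in the same order, out of 845316 to 16827260 UMIs per library. For Parse mesPVAT and RP fat, the study saw no clear break between nuclei and background in the ranked barcodes. It read this as difficulty in separating true nuclei from ambient RNA. Barcodes of these libraries are called nuclei here, but some may hold background RNA, and its part in their values was not tested. Levels below are CPM, a gene's UMIs in all nuclei per 1000000 UMIs of the library, and shares are those of nuclei with at least 1 UMI, with exact Poisson or binomial 95% intervals that cover counting error only. The fat label was borne out by adipocyte genes in every library, with Plin1, the lipid droplet coat protein, at 164 to 2501 CPM. Ucp1, which defines brown fat, reached 2072 CPM in BAT and 1782 CPM in taPVAT against 0.654 to 89.9 CPM in the other 4 libraries. The myelin gene Mbp had 76 to 3128 UMIs in a library, but it is also read from a longer transcription unit used by other cells. No cluster of nuclei in any library met the criteria for a Schwann-like name, so the genes are described by themselves and by the clusters in which they were found.

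As a sum, the 8 genes were highest in the white rat depots on Parse and lowest on 10x. The library labelled RP fat had 605 CPM (553 to 659) and the one labelled mesPVAT 445 CPM (414 to 479). The sum was 291 CPM (278 to 305) in BAT, 179 CPM (167 to 191) in taPVAT, 74.6 CPM (70.5 to 78.8) in cow WAT and 51.7 CPM (39.8 to 66.0) on 10x. Cadm2 and Chl1, which neurons and other cells also use, made up most of the sum in the white rat libraries, and without them 136 CPM remained in RP fat, 109 CPM in mesPVAT, 138 CPM in BAT, 70.6 CPM in taPVAT, 17.1 CPM in cow WAT and 13.7 CPM on 10x. In such sums, fewer cells of a type and less RNA per cell cannot be told apart. BAT exceeded taPVAT by 1.63-fold (1.51 to 1.77). The library labelled RP fat exceeded the one labelled mesPVAT by 1.36-fold (1.21 to 1.52), a direction that would turn if their labels were exchanged. Sublibraries of the same library differed by more than these intervals, at 256 and 327 CPM in BAT and 203 and 152 CPM in taPVAT, although both BAT values lay above both taPVAT values.

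Sox10, the factor that specifies the glial lineage of the neural crest, was detected in every library at a low level. It reached 9.05 CPM (15 UMIs in 14 nuclei) in the library labelled mesPVAT and 7.10 CPM (6 UMIs in 6 nuclei) in RP fat. BAT had 2.22 CPM (14 UMIs in 12 nuclei), cow WAT 1.72 CPM (29 UMIs in 20 nuclei), taPVAT 0.980 CPM (5 UMIs in 5 nuclei) and 10x mesPVAT 0.808 CPM (1 UMI). Neighbouring libraries in this order had overlapping intervals throughout. Further apart, the library labelled mesPVAT lay above BAT, cow WAT, taPVAT and 10x mesPVAT without overlap, and RP fat lay above cow WAT and taPVAT. This was not particular to glial genes. The neuron gene Rbfox3 was 257 CPM in RP fat and 130 CPM in mesPVAT, against 20.4 CPM in BAT and 24.9 CPM in taPVAT. The melanocyte gene Dct was 26.0 and 10.3 CPM, against 2.69 and 3.33 CPM. Some genes went the other way, such as Mbp at 89.9 and 182 CPM against 495 and 425 CPM. The cause was not tested.

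Scn7a encodes the sodium channel protein Nax, which senses extracellular sodium and is found in non-myelinating Schwann cells. It was highest in BAT, at 121 CPM (112 to 130), and 65.1 CPM (49.0 to 84.7) in RP fat, 55.7 CPM (49.4 to 62.6) in taPVAT and 55.5 CPM (44.8 to 68.1) in mesPVAT. The last 3 overlapped, whereas BAT stood above all of them and was 2.17-fold (1.89 to 2.49) above taPVAT. Cow WAT was far lower at 5.82 CPM (4.73 to 7.10), and 10x mesPVAT had 1 UMI, or 0.808 CPM. The Parse library labelled mesPVAT exceeded 10x mesPVAT by 68.7-fold for Scn7a, with an interval from 12.0 to 2744, against 8.61-fold (6.67 to 11.3) for the sum of the 8 genes. Between the Parse sublibraries Scn7a was 68.9 and 41.5 CPM in taPVAT and 111 and 131 CPM in BAT.

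Ttyh1, a membrane protein of the tweety family, followed the white depots, with 11.8 CPM (10 UMIs) in RP fat and 10.3 CPM (17 UMIs) in mesPVAT. It was 3.48 CPM (22 UMIs) in BAT, 2.55 CPM (13 UMIs) in taPVAT, 1.07 CPM (18 UMIs) in cow WAT and 0.808 CPM (1 UMI) on 10x. Gal3st1, the sulfotransferase that makes the myelin lipid sulfatide, was near the limit of detection everywhere, with 1 to 6 UMIs in a library. Its level was 7.10 CPM in RP fat, 3.62 CPM in mesPVAT, 0.950 CPM in BAT, 0.808 CPM on 10x, 0.588 CPM in taPVAT and 0.297 CPM in cow WAT, and each of these overlapped the next. Slitrk6, a transmembrane protein that shapes neurite growth, had 2 to 15 UMIs in a library, at 8.28 CPM in RP fat, 1.81 CPM in mesPVAT, 1.62 CPM on 10x, 0.891 CPM in cow WAT, 0.475 CPM in BAT and 0.392 CPM in taPVAT. For Gal3st1 and Slitrk6 differences between depots were mostly not detectable at this depth.

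The remaining members are adhesion molecules. Cdh19, a cadherin of the Schwann cell lineage, was 36.7 CPM (24.9 to 52.1) in RP fat and 29.0 CPM (21.4 to 38.4) in mesPVAT. It was 10.4 CPM in taPVAT, 9.97 CPM in BAT, 8.89 CPM on 10x and 7.25 CPM in cow WAT, each overlapping its neighbour. Chl1, the close homologue of the axonal adhesion molecule L1, was 73.3 CPM (56.2 to 94.0) in RP fat and 55.5 CPM (44.8 to 68.1) in mesPVAT. It differed from the other members in that cow WAT came next, at 34.6 CPM (31.9 to 37.6), above taPVAT at 19.6 CPM, BAT at 18.2 CPM and 10x mesPVAT at 8.89 CPM. Cadm2, a cell adhesion molecule of synapses and axons, was 395 CPM (354 to 440) in RP fat, 281 CPM (256 to 307) in mesPVAT, 135 CPM (126 to 145) in BAT and 88.4 CPM (80.5 to 97.0) in taPVAT, and these 4 did not overlap. It was 29.1 CPM on 10x and 22.9 CPM in cow WAT, which overlapped. BAT and taPVAT differed beyond counting error in Scn7a and in Cadm2 (1.53-fold, 1.36 to 1.72) but not detectably in Cdh19 (0.960-fold, 0.655 to 1.41) or Chl1 (0.928-fold, 0.704 to 1.23). Cadm2 also differed between the BAT sublibraries, at 112 and 159 CPM.

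**Figure D1:**
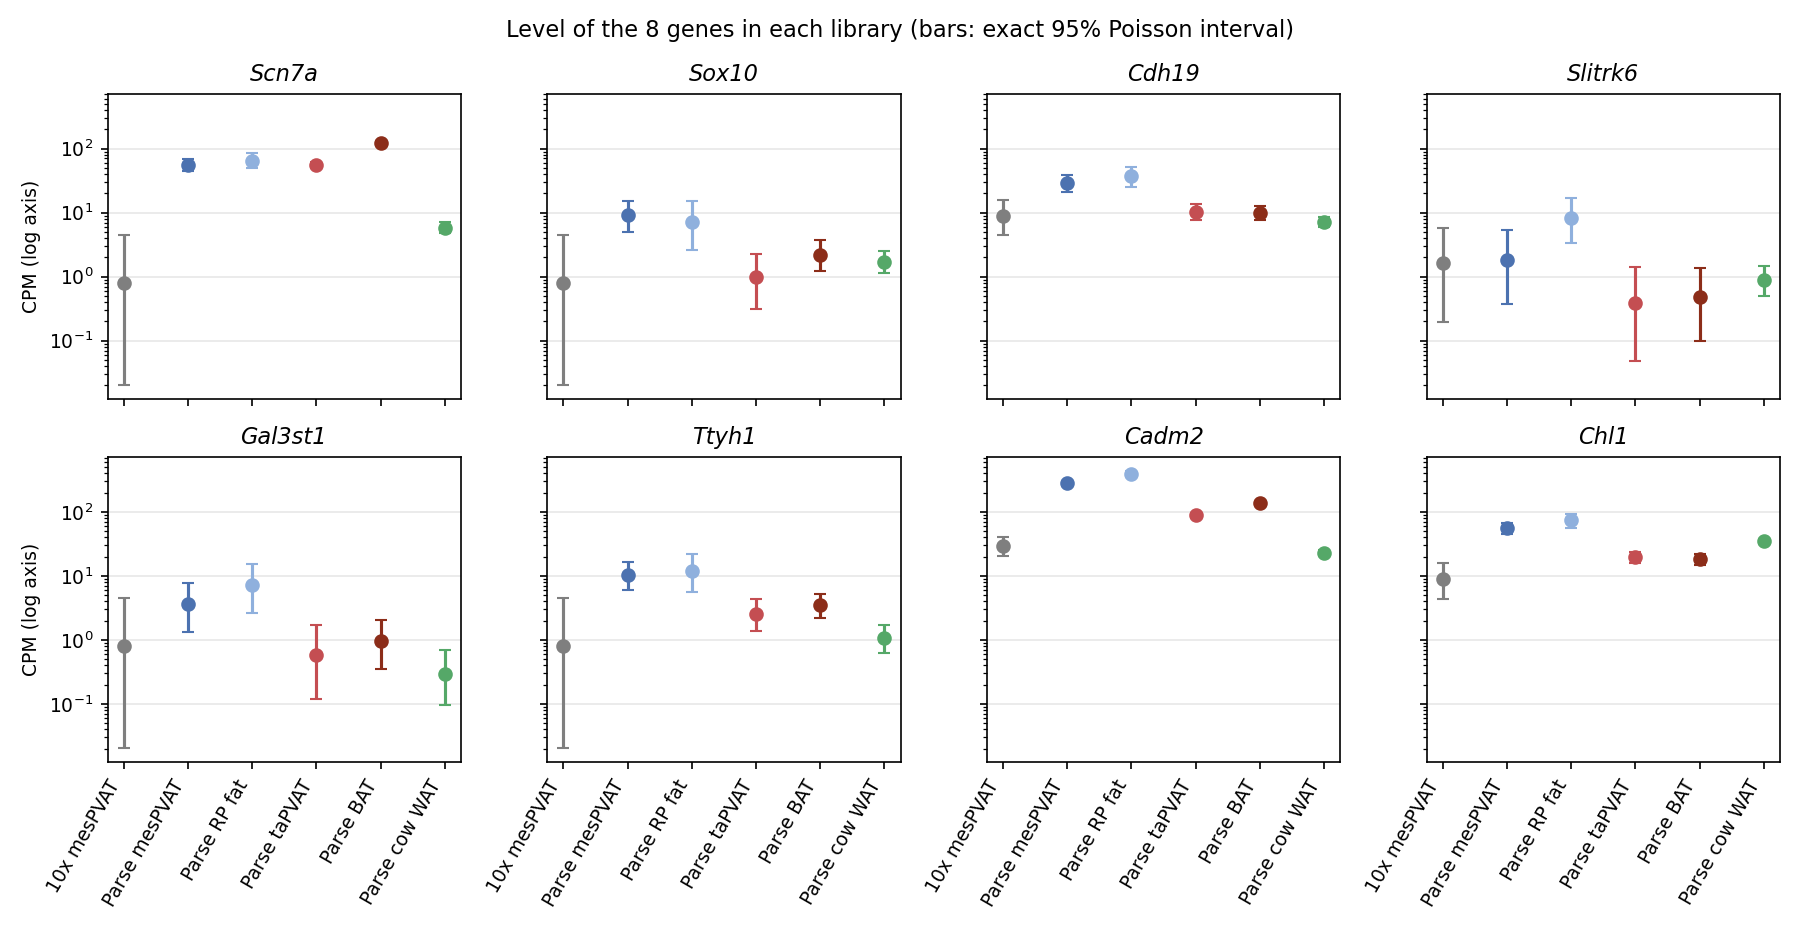
Level of each of the 8 genes in the 6 libraries, in CPM on a log axis, with exact 95% Poisson intervals (bars hidden where smaller than the point). Scn7a is highest in BAT (121 CPM), whereas Sox10, Cdh19, Ttyh1, Cadm2 and Chl1 are highest in the white rat libraries on Parse.

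Levels of different genes are also given per length. This assumes that UMIs rise in proportion to gene length, which was not tested. Per kilobase of annotated gene body, Scn7a led in BAT at 1.18 CPM per kb, above Sox10 at 0.236, Ttyh1 at 0.187, Cadm2 at 0.139, Cdh19 at 0.0894 and Chl1 at 0.0849 CPM per kb. In taPVAT Scn7a also led, at 0.543 CPM per kb, against 0.137 for Ttyh1, 0.105 for Sox10 and 0.0905 for Cadm2. In the library labelled mesPVAT the order was different, with Sox10 at 0.966 CPM per kb (0.540 to 1.59), Ttyh1 at 0.552, Scn7a at 0.541 (0.436 to 0.664) and Cadm2 at 0.287. In RP fat Slitrk6 led at 1.25 CPM per kb (0.503 to 2.58) on 7 UMIs, and Sox10 was 0.757 on 6 UMIs. Short genes are thus ranked there on few UMIs.

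The spread of the UMIs over nuclei also differed. In BAT, 99 nuclei (3.67%) held Scn7a, and 29 of them had 10 or more UMIs each and together held 621 of the 763 UMIs. In taPVAT 66 nuclei (2.44%) were positive, and the 9 nuclei with 10 or more UMIs held 159 of 284 UMIs. In RP fat, in contrast, 43 of the 47 positive nuclei had 1 UMI, and the highest nucleus had 6. The library labelled mesPVAT was between these, with 49 of 60 positive nuclei at 1 UMI and a highest nucleus of 7, and cow WAT had 57 of 69 at 1 UMI and a highest nucleus of 7. Cadm2 followed the same split: nuclei with 10 or more UMIs held 543 of 855 UMIs in BAT and 147 of 451 UMIs in taPVAT, whereas 259 of 334 UMIs in RP fat came from nuclei with 1 UMI. In mesPVAT 4 nuclei with 10 or more held 67 of 465 Cadm2 UMIs. Depth moved with this split among the rat libraries, with medians of 1706 UMIs per nucleus in BAT, 1246 in taPVAT, 346 in mesPVAT and 213 in RP fat, and its part was not tested. Cow WAT, the deepest at 3530 UMIs, had no nucleus with 10 or more Scn7a UMIs.

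**Figure D2:**
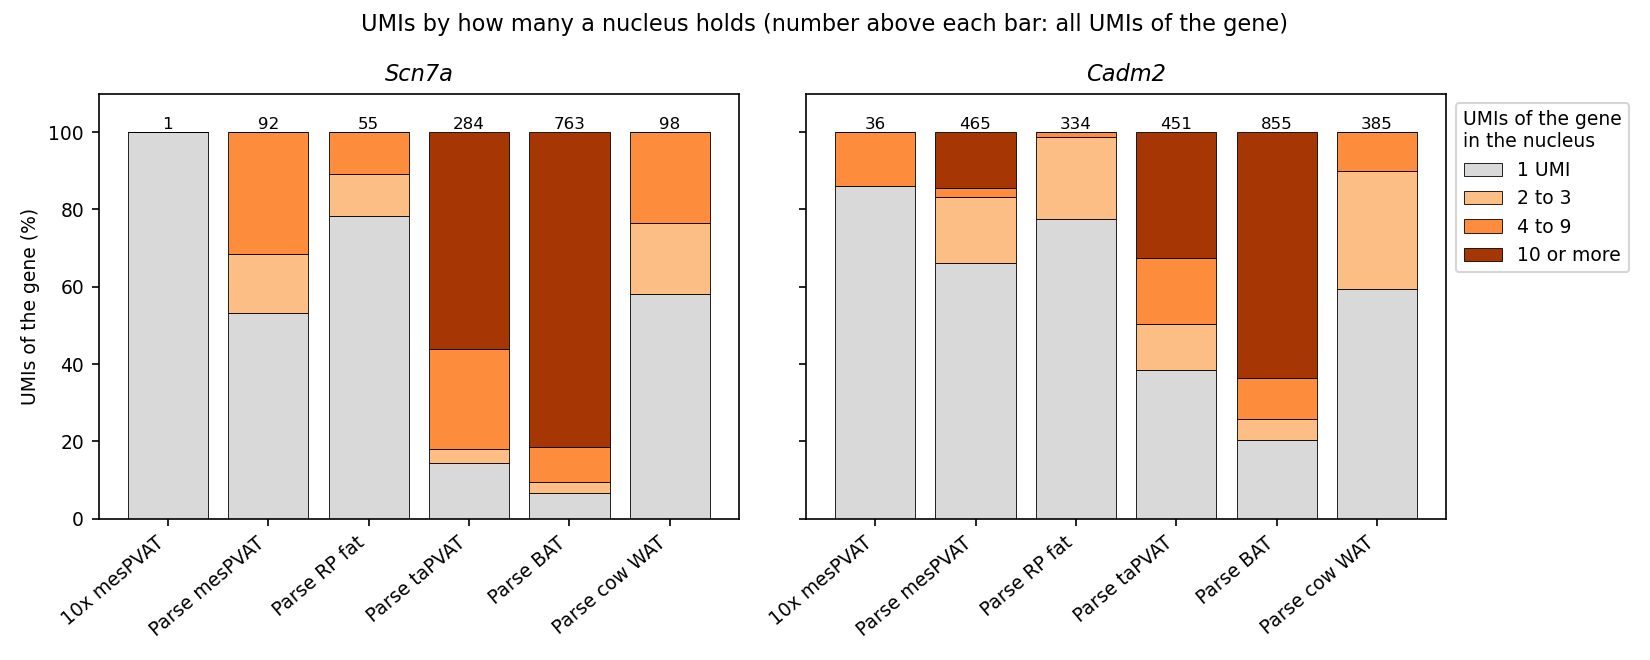
Share (%) of all Scn7a and Cadm2 UMIs in each library that came from nuclei with 1, 2 to 3, 4 to 9, or 10 or more UMIs of that gene, with the total UMIs above each bar. In BAT and taPVAT most Scn7a UMIs lie in nuclei with 10 or more, while in RP fat most are single.

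Co-detection showed whether the members share nuclei. At least 1 member was found in 0.951% of nuclei on 10x, 16.7% in mesPVAT, 14.9% in RP fat, 25.8% in cow WAT, 12.9% in BAT and 12.7% in taPVAT. At least 2 members were found together in 77 nuclei of BAT (2.85%, 2.26 to 3.55), 45 of taPVAT (1.66%), 49 of mesPVAT (1.62%), 39 of RP fat (1.39%), 138 of cow WAT (6.01%) and 1 nucleus on 10x. The product of the single shares, which ignores that deep nuclei show more of every gene, gives 30.8 nuclei in BAT, 21.0 in taPVAT, 30.4 in mesPVAT, 20.4 in RP fat, 84.5 in cow WAT and 0.171 on 10x. For 3 or more members the gap was wider, with 38 nuclei against 0.948 in BAT, 20 against 0.492 in taPVAT, 11 against 0.759 in mesPVAT, 36 against 4.48 in cow WAT and 3 against 0.416 in RP fat. Depth moved with these counts: nuclei with 3 or more members had a median of 27637.5 UMIs in cow WAT and 1842 UMIs in mesPVAT, several times the library medians, but 2320 UMIs in BAT and 2729 UMIs in taPVAT, nearer to theirs. After each nucleus was thinned to 200 UMIs, 20 nuclei in BAT (0.741%), 7 in taPVAT, 11 in mesPVAT, 9 in RP fat, 2 in cow WAT and 1 on 10x still held at least 2 members. Thinning left out 3788 nuclei on 10x, 476 in mesPVAT and 1302 in RP fat, and none in the other libraries.

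Nuclei with Sox10 gave the closest view of the glial lineage. In BAT, 10 of the 12 Sox10-positive nuclei (83.3%, 51.6 to 97.9) held another member, against 12.5% (11.3 to 13.8) of Sox10-negative nuclei. The partners were Scn7a in 9, Cadm2 in 9, Chl1 in 8 and Cdh19 in 5 of the 12 nuclei, and the median depth was 2485 UMIs with Sox10 and 1704 UMIs without. In cow WAT 14 of 20 Sox10-positive nuclei (70.0%, 45.7 to 88.1) held another member, against 25.1% of the others, with Cdh19 as the most frequent partner (8 nuclei). There the depths were 7267.5 and 3513 UMIs. In mesPVAT 7 of 14 (50.0%, 23.0 to 77.0) did so, against 16.3%, at 884 and 344.5 UMIs. In taPVAT 2 of 5, in RP fat 1 of 6 and on 10x 0 of 1 Sox10-positive nuclei held another member. After thinning, at most 5 Sox10-positive nuclei were left in a library, which is too few to read a share. Cdh19 paired with Scn7a in 24 nuclei of BAT, of 46 with Cdh19, in 12 of 43 in taPVAT, 12 of 71 in cow WAT and 7 of 45 in mesPVAT.

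In BAT most member UMIs lay in a single cluster. Nuclei of each library were clustered without the 8 genes, so their levels in a cluster were not used to make it. However, the cluster described is the one with the highest sum of the 8 genes, so its sum is a description. The genes were also chosen with earlier results of these data known, so each gene's level in that cluster is a description too. This cluster held 36 nuclei (1.37% of the 2627 that passed the study's filters), 17 from the first and 19 from the second sublibrary, and was recovered with the same 36 nuclei at each of 3 clustering resolutions. It contained 1297 of the 1769 member UMIs (73.3%), at 11944 CPM against 429 CPM in the next cluster. All 36 nuclei had at least 2 members, but 69 of the filtered BAT nuclei did, so the others lay outside. Of the 36 BAT nuclei with 3 or more members, 28 were in this cluster. Its median depth of 2210.5 UMIs was near the 2319 UMIs of the 1018 adipocyte-like nuclei, of which 4 (0.393%) had at least 2 members.

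Every nucleus of that cluster contained Scn7a, from 1 to 45 UMIs with a median of 15.5, and together they held 612 of 729 Scn7a UMIs. The level was 5636 CPM inside and 20.4 CPM outside, a 276-fold difference (226 to 339), and 9 of the 1018 adipocyte-like nuclei (0.884%) had the gene. Cadm2 was present in 34 of the 36, at 5295 CPM inside and 44.4 CPM outside (119-fold, 103 to 139). The less abundant members were distributed in the same direction. Sox10 had 11 of its 14 UMIs there (101 and 0.524 CPM, 193-fold with an interval of 51.0 to 1078), Ttyh1 15 of 22 (113-fold, 43.3 to 327), Cdh19 36 of 58 (86.2-fold, 49.4 to 154) and Chl1 47 of 110 (39.3-fold, 26.4 to 58.3). Slitrk6 had 1 of 2 UMIs there and Gal3st1 0 of 5, so these 2 genes say little about the cluster. Scn7a was not confined to it: the 117 immune-like nuclei held 41 Scn7a UMIs, in 6 nuclei with up to 23 each, and the 134 pericyte- and smooth muscle-like nuclei held 16 UMIs in 4 nuclei.

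Marker genes described the cluster further, although they were among the genes clustered and so are a description only. Erbb3, the neuregulin receptor of the Schwann cell lineage, was 147 CPM inside and 3.15 CPM outside (46.8-fold, 22.3 to 97.3). L1cam, the adhesion molecule of axons and non-myelinating Schwann cells, was 79.0-fold higher (18 of 30 UMIs), Ncam1 29.1-fold (48 of 135), Gfra3, a receptor subunit for artemin, 26.3-fold (7 of 21), and Adgrg6, an adhesion receptor that Schwann cells need to myelinate, 14.8-fold (14 of 64). Of the myelin genes, Egr2 and Mag had 0 UMIs there, Prx had 1 and Mbp was 0.879-fold (0.647 to 1.17). Of the 10 Schwann markers 5 were higher inside than outside and they summed to 1584 and 1049 CPM, but only Xkr4 and Erbb3 met the criteria for a raised marker, where 3 were needed for a name. For 6 of the 8 pericyte and smooth muscle markers the criteria, which compare a cluster with the median of the other clusters, were met, but 5 of 8 were higher than in all other nuclei together, the list summed to 1096 CPM inside and 1108 CPM outside, and none was among the 50 leading genes. None of the 10 adipocyte markers was higher inside (7597 and 12124 CPM), while 5 of 9 markers of adipose stem and progenitor cells (ASPC; 2109 and 584 CPM) and 7 of 10 immune markers (349.9 and 228 CPM) were. The cluster was therefore left unnamed, and doublets were not removed. The rule on the 50 leading genes was added after the clusters were seen, and without it this cluster met the marker count for a pericyte and smooth muscle name. The part of these other cell markers in the result was not tested.

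**Figure D3:**
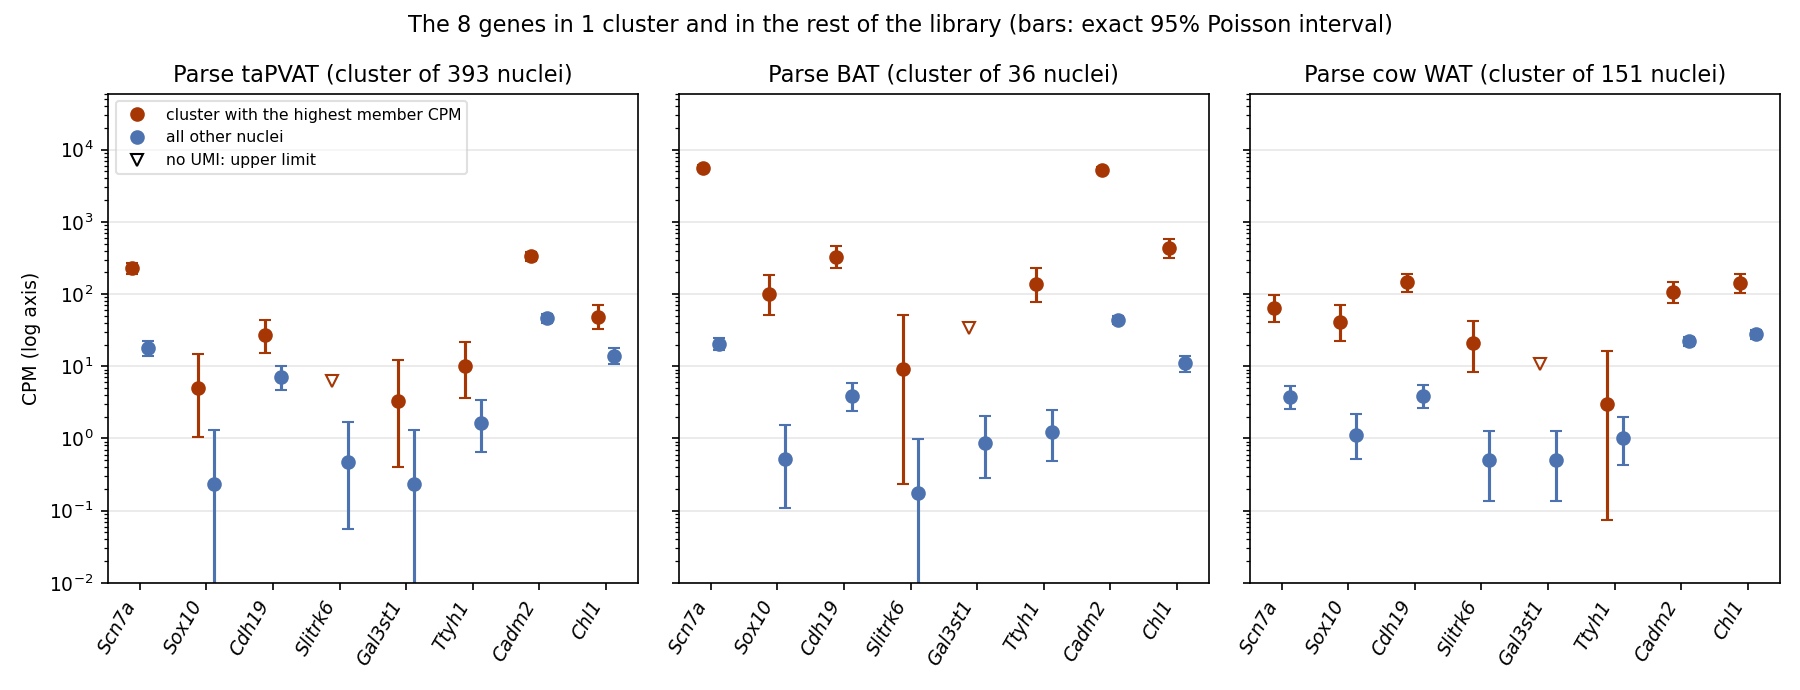
CPM (log axis) of each gene in the cluster with the highest sum of the 8 genes (red) and in all other nuclei (blue) of taPVAT, BAT and cow WAT, with exact 95% Poisson intervals and open triangles for the upper limit where no UMI was found. The gap is widest in BAT, where Scn7a is 5636 CPM inside and 20.4 CPM outside.

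In taPVAT the genes gathered less sharply. The cluster with the highest sum held 393 nuclei (median 943 UMIs) and 391 of 765 member UMIs (51.1%), at 656 CPM against 162 CPM in the next. Scn7a was found in 27 of its nuclei (6.87%), with 136 of 212 UMIs and up to 25 in a nucleus, at 228 and 17.8 CPM inside and outside (12.8-fold, 9.62 to 17.2). Among the 616 adipocyte-like nuclei (median 2035 UMIs) 5 Scn7a UMIs were found. The cluster held 24 of the 38 nuclei with at least 2 members and 11 of the 15 with at least 3. Cadm2 was 7.25-fold, Ttyh1 6.15-fold, Cdh19 3.83-fold and Chl1 3.47-fold higher inside, and 3 of the 4 Sox10 UMIs fell there. It was led by Ttn, Calr3 and Fabp3, with all 10 adipocyte markers higher inside (12209 and 9865 CPM). Of the other lists, 9 of 10 Schwann markers were higher inside, although they summed to 897 CPM inside and 974 CPM outside, and 5 of 7 striated muscle markers were (537 and 300.3 CPM). The part of these markers in the result was not tested. In all, 305 of its 393 nuclei held no member. At the highest resolution 180 nuclei held 341 of the UMIs at 1749 CPM. Nuclei removed by the study's filters mattered here, since the 71 removed held 72 Scn7a UMIs (25.4%), including the nucleus with the most, 37.

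In cow WAT a cluster of 151 nuclei (median 1865 UMIs) held 177 of 659 member UMIs (26.9%), at 524 CPM against 128 CPM in the next. Cdh19 had 49 of 80 UMIs in 14 of these nuclei (145 and 3.91 CPM, 37.2-fold, 23.2 to 60.3), and Sox10 had 14 of 23 in 5 nuclei (41.5 and 1.13 CPM, 36.6-fold, 14.7 to 95.8). Slitrk6 had 7 of 11 (41.1-fold, 10.5 to 192) and Scn7a 22 of 52 (17.2-fold, 9.48 to 30.9). Chl1 and Cadm2 were 5.15-fold (3.69 to 7.07) and 4.78-fold (3.25 to 6.87) higher, Ttyh1 had 1 UMI and Gal3st1 had 0. L1cam was 14.8-fold higher, and Egr2 had 1 UMI. Markers of other cells moved with this cluster: 6 of 6 striated muscle markers (124 and 39.2 CPM inside and outside) and 5 of 6 lymphatic endothelial markers (329 and 119 CPM) were higher inside, as were 6 of 9 Schwann markers (261 and 134 CPM). Their part in the result was not tested. At least 2 members were found in 20 of the 151 nuclei (13.2%) and in 6 of 132 adipocyte-like nuclei (4.55%), which were deeper at a median of 3808 UMIs. Those adipocyte-like nuclei were also rich in Chl1, with 67 UMIs in 29 nuclei, and 219 of the 267 Chl1 UMIs lay outside the cluster. The study's filters removed 289 cow nuclei that held 46.9% of Scn7a UMIs.

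**Figure D4:**
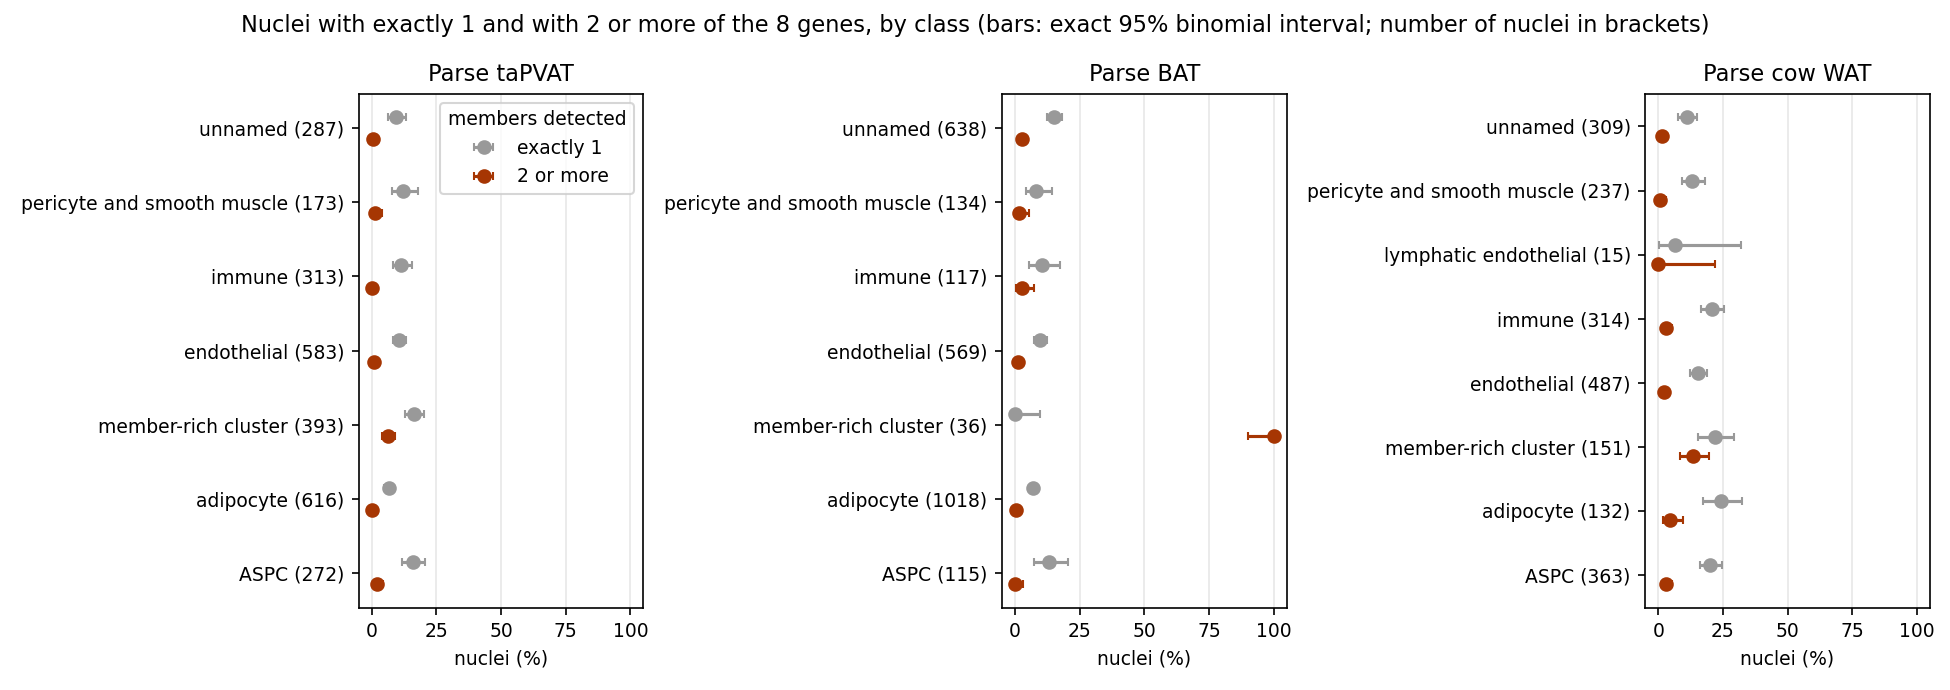
Share of nuclei (%) with exactly 1 (grey) and with 2 or more (red) of the 8 genes in each class of taPVAT, BAT and cow WAT, with exact 95% binomial intervals and the number of nuclei in brackets; the member-rich cluster is the one with the highest summed CPM. In BAT all 36 nuclei of that cluster have 2 or more, while in the other classes most nuclei with a member have exactly 1. The member-rich clusters of taPVAT and cow WAT also have more nuclei with exactly 1 (64 and 33) than with 2 or more (24 and 20).

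The class shares show what single detection is worth. Among the 1018 adipocyte-like nuclei of BAT 6.78% had exactly 1 member, and among the 569 endothelial-like nuclei 9.67%, whereas 0.393% and 1.23% had 2 or more. The members differed in this. Cadm2 was in 48 of these adipocyte-like and 36 of these endothelial-like nuclei, and Sox10, with 12 positive BAT nuclei in all, in 0 and 1. In taPVAT 6.49% of adipocyte-like and 10.5% of endothelial-like nuclei had exactly 1 and 0.162% and 0.858% had 2 or more. In cow WAT the share with exactly 1 was 24.2% in adipocyte-like and 15.2% in endothelial-like nuclei, beside 21.9% in the member-rich cluster. Chl1 was found in 29 of the 132 cow adipocyte-like nuclei. Its level was 96.6 CPM there and 19.4 CPM in endothelial-like nuclei. The part of background RNA in these shares was not tested. A nucleus with 1 member thus cannot be told from other cell types by that alone.

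No cluster of the white rat libraries gathered the members in this way. In the library labelled mesPVAT the highest sum was in the ASPC-like cluster of 340 nuclei, with 127 of 639 member UMIs (19.9%) at 736 CPM, against 592 CPM in the next. It held 39 of 87 Scn7a UMIs, in 15 nuclei with up to 7 each, and 4 of 14 Sox10 UMIs. Scn7a was 226 CPM (161 to 309) there, against 16.3 to 54.2 CPM in the other classes of that library. Of the 8 nuclei with at least 3 members, 4 were in this cluster. In RP fat the highest sum, 782 CPM in 160 nuclei, lay close to the next at 754 CPM, and 91.0% of nuclei there were in unnamed clusters. On 10x the highest sum rested on 3 UMIs in 25 nuclei. Cadm2 in RP fat was found in 29 of 233 adipocyte-like nuclei and in 255 of 2369 unnamed nuclei, so its UMIs were spread over the library.

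Other genes of the nerve were compared from fixed lists, as CPM in nuclei with at least 2 members over CPM in all other nuclei, for genes with at least 50 UMIs. A gene was called at a ratio of 5 or more with at least 5 UMIs inside. Over all genes tested the calls were 76 of 10493 (0.724%) in BAT, 28 of 10248 (0.273%) in taPVAT, 2 of 7302 (0.0274%) in mesPVAT, 1 of 15783 (0.00634%) in cow WAT, 0 of 3978 (0%) in RP fat and 0 of 5034 (0%) on 10x. Of the list of Schwann cell identity and non-myelinating genes, 2 of 7 tested were called in BAT, Ncam1 (14.0-fold) and Adgrg6 (5.49-fold), and 0 of 7 in taPVAT, 0 of 6 in mesPVAT, 0 of 5 in RP fat and 0 of 9 in cow WAT. The rest of this list had too few UMIs in BAT to be tested. These were Erbb3 (44.1-fold, 25 of 36 UMIs), L1cam (38.8-fold, 22 of 33), Gfra3 (9.06-fold, 7 of 22), Foxd3 (3 of 4 UMIs) and Nrn1 (1.34-fold). The median ratio of this list was 2.06 in BAT, 2.19 in taPVAT, 2.24 in mesPVAT, 1.24 in RP fat and 1.22 in cow WAT, beside 1.02, 0.990, 0.997, 0.956 and 1.07 over all genes tested. The myelin list had 0 of 5 called in BAT and 0 of 5 in taPVAT, with medians of 1.51 and 1.05, and its most abundant gene, Mbp, had ratios of 0.768 and 0.964. In BAT the intervals of 2 of the 5 lay above 1, among them Prx, a protein of the myelinating Schwann cell (2.82-fold, 1.23 to 5.70). That of Mbp lay below 1 (0.634 to 0.922). The neuron list had 0 of 2 called in BAT and in taPVAT, 0 of 4 in mesPVAT, 0 of 3 in RP fat and 0 of 8 in cow WAT, with medians of 1.75, 0.532, 2.37, 0.914 and 1.12. Elavl4, an RNA-binding protein of neurons, had too few UMIs in BAT to be tested, with 8 of 41 in the selected nuclei (4.71-fold, 1.88 to 10.4). The neuron medians leave out genes with 0 UMIs inside, which gave no ratio. That of taPVAT rests on Syt1 alone, without Rbfox3 (0 of 127 UMIs inside), and that of RP fat is without Elavl4 (0 of 53). The medians over all genes tested keep such genes at 0. No gene of the lists for other glia and melanocytes had enough UMIs to be tested in a rat library. The selected nuclei were deeper than the rest, with medians of 2307 UMIs in BAT, 2209 in taPVAT, 774 in mesPVAT, 695 in RP fat and 14861.5 in cow WAT. In mesPVAT they held 145995 UMIs, of which 41374 and 33495 came from single nuclei, so its ratios lean on these.

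The genes most like the members were taken as the 10 with the largest ratio among those called in taPVAT. Lgi4, a ligand that Schwann cells secrete and need for myelination, was 222 CPM in taPVAT nuclei with at least 2 members and 9.76 CPM in the others (22.7-fold, 14.6 to 35.3), and 216 and 9.15 CPM in BAT (23.6-fold, 16.3 to 34.4). Above it stood only the unnamed gene ENSRNOG00000089727, at 26.0-fold in taPVAT and 45.1-fold in BAT. Csmd1, a transmembrane protein with complement control domains, was 10.4-fold and 17.3-fold, and Ntng1, the axon guidance protein netrin-G1, was 10.7-fold and 11.7-fold. Genes of the extracellular matrix were represented by Matn2 (matrilin-2; 9.88-fold and 24.3-fold) and Col16a1 (a fibril-associated collagen; 9.30-fold and 24.8-fold). The remaining genes were Epb41l4b (10.2 and 5.66-fold), Nkd2, an inhibitor of Wnt signalling (10.05 and 5.35-fold), Frmd5 (8.98 and 24.3-fold) and Mlip (8.59 and 21.0-fold). All 10 genes were called in BAT as well as in taPVAT. Of the 28 genes called in taPVAT, 26 (92.9%) were called in BAT, and these were 38.8% of the 67 BAT calls tested in both.

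None of these 10 genes was called in cow WAT, mesPVAT or RP fat, although Lgi4 and Nkd2 had too few UMIs to be tested in mesPVAT and RP fat and ENSRNOG00000089727 was not in the cow file. In cow WAT the ratio of Lgi4 was 0.603, of Matn2 0.923 and of Mlip 1.64. Of the 138 cow nuclei with at least 2 members, 82 held both Cadm2 and Chl1. After the study's filters, 20 of the 62 cow nuclei with at least 2 members lay in the member-rich cluster, so the ratios also cover nuclei outside it. The same holds for BAT, with 36 of 69 such nuclei in its cluster, and for taPVAT, with 24 of 38. In mesPVAT Matn2 was 3.79-fold (2.40 to 5.82), Mlip 2.63-fold and Csmd1 2.36-fold, and in RP fat the ratios of these genes were 0.773, 1.16 and 1.16. The mesPVAT ratios include the very deep nuclei given above.

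**Figure D5:**
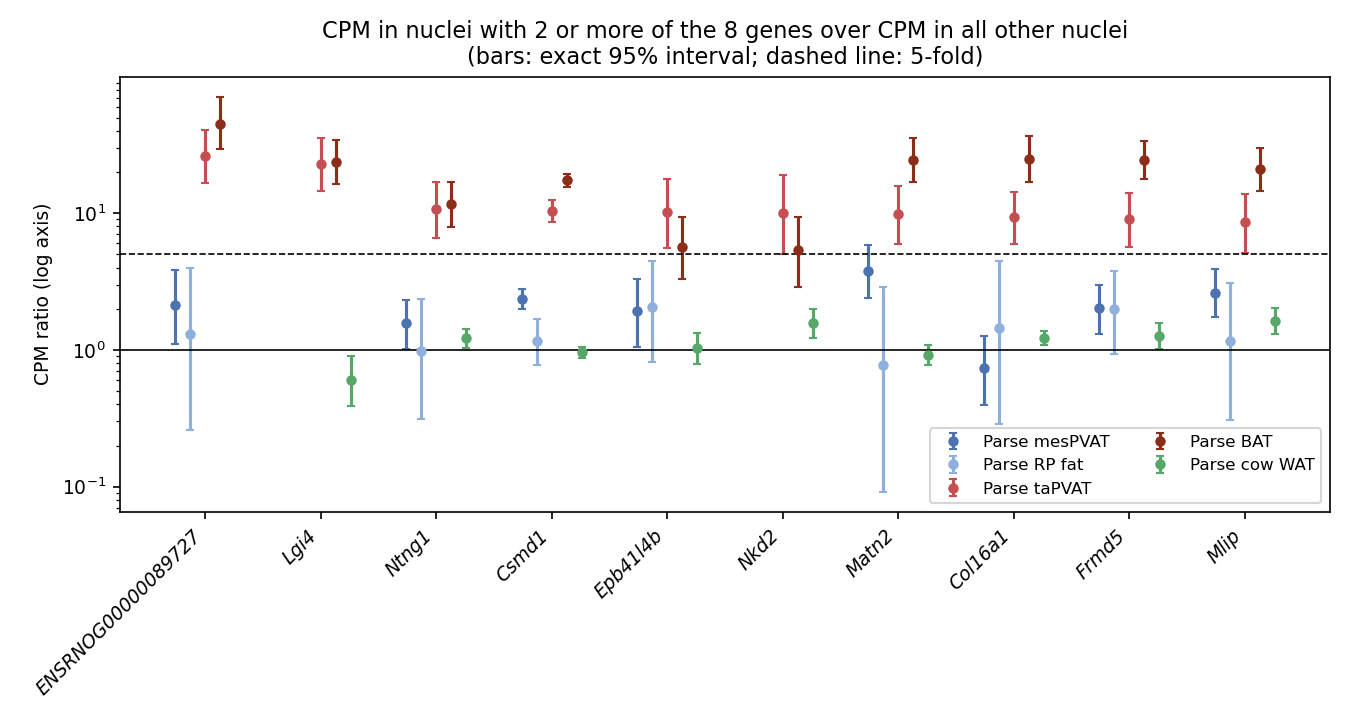
Ratio (log axis) of CPM in nuclei with 2 or more of the 8 genes to CPM in all other nuclei, with exact 95% intervals, for the 10 genes most like the members in taPVAT; the dashed line marks 5-fold. All 10 lie above 5 in taPVAT and BAT, and all points shown for mesPVAT, RP fat and cow WAT lie below 5; a gene without a point had under 50 UMIs in that library or was not in its file.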

How the data were processed

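Nuclei of 6 libraries, 1 per condition, were analysed from the deposited UMI counts per gene and barcode. The authors sorted Parse reads into species, ran split-pipe on GRCr8 (rat) or ARS-UCD1.3 (cow) for alignment and counting, and deposited counts of the filtered barcodes without normalization, with reads checked in FastQC. For 10x Genomics the authors deposited Cell Ranger counts of called barcodes, with Rnor_6.0 named in the supplementary methods, so gene models can differ between platforms. The Parse libraries of white rat fat keep their deposited labels as names, although the range of UMIs per nucleus puts those labels in doubt. Total UMIs were 845316 to 16827260 per library, and a count of 0 allows up to 3 UMIs, or 0.178 to 3.55 CPM.

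All deposited barcodes were used for levels, shares and co-detection, and UMIs were summed and scaled to CPM. No test was made, since no condition had a replicate. Intervals are exact Poisson, binomial and conditional Poisson (ratios) at 95% and cover counting error only. For clusters, the study's filters were applied (100 to 15000 UMIs, at most 4500 genes and 3% mitochondrial UMIs, 5 median absolute deviations, here within each library). Each library was clustered alone without the 8 genes by the Leiden algorithm at resolution 1, with 0.5 and 2 as alternatives, and clusters were named X-like from 9 marker lists, of which the Schwann list holds no member. A marker counted as raised at 2 times the median of the other clusters, in 5% of nuclei and with 10 UMIs, and 3 were needed. A further rule, a class marker among the 50 leading genes, was added after the clusters were seen. Doublets were not removed. Thinning drew 200 UMIs per nucleus with seed 20. Genes named are the 8 members, genes of the fixed lists, and the 10 genes with the largest ratio among those called in taPVAT. The members and lists were chosen with earlier results of these data known. Some genes of the myelin list are not reported here. The call rule was tested on simulated Poisson counts for BAT nuclei drawn at random, without selection on members or spread between nuclei. That test therefore does not cover these features of the real calls. Python 3.11.15, numpy 2.4.6, scipy 1.17.1, pandas 2.3.3, igraph 0.11.9, leidenalg 0.10.2, scikit-learn 1.9.0 and matplotlib 3.10.9 were used.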

Additional observations from a re-analysis of the deposited data

How the results depend on the processing

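No paired analysis was possible because each condition had 1 library, and for the same reason no replicate could be left out. The summed CPM moved beyond its interval under 17 of 34 alternatives. Without Cadm2 and Chl1 it was 13.7 on 10x, 109 in mesPVAT, 136 in RP fat, 17.1 in cow WAT, 138 in BAT and 70.6 in taPVAT. Nuclei with at least 500 UMIs gave 24.3 on 10x. The study's filters gave 157 in taPVAT and 79.6 in cow WAT, and scaling without the most abundant gene gave 83.9 in cow WAT, 332 in BAT and 203 in taPVAT. Single sublibraries gave 548 in RP fat, 203 and 152 in taPVAT and 256 and 327 in BAT. The ratio of taPVAT to BAT was 0.517 with the study's filters, and that of 10x to Parse mesPVAT was 0.0567 among nuclei with at least 500 UMIs.

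The share of nuclei with at least 2 members moved under 21 of 30 alternatives, and the count of genes called in those nuclei under 9 of 11. With detection from 2 UMIs it was 0% on 10x, 0.330% in mesPVAT, 0.0713% in RP fat, 1.09% in cow WAT, 1.41% in BAT and 0.775% in taPVAT. Without Cadm2 and Chl1 it was 0%, 0.396%, 0.107%, 0.958%, 1.22% and 0.591%, in the same order. Thinned to 200 UMIs it was 0.431% in mesPVAT, 0.599% in RP fat, 0.0871% in cow WAT, 0.741% in BAT and 0.258% in taPVAT. Among nuclei with at least 500 UMIs it was 0% on 10x, 3.28% in mesPVAT and 6.58% in RP fat, and with the study's filters it was 3.09% in cow WAT. The co-detection with Sox10 fell to 0% in taPVAT and BAT after thinning, where 1 Sox10-positive nucleus was left in each. No member UMI lay in a Schwann-like cluster at any resolution. When each nucleus was classed alone by its marker UMIs, the Schwann class held 10.0% of member UMIs on 10x, 6.57% in mesPVAT, 2.85% in RP fat, 3.79% in cow WAT, 7.01% in BAT and 6.67% in taPVAT. With nuclei of at least 3 members the calls were 0 in mesPVAT, 3 in RP fat, 8 in cow WAT, 146 in BAT and 61 in taPVAT. With at least 100 UMIs per gene they were 0 in mesPVAT and cow WAT, 45 in BAT and 11 in taPVAT. The causes of these shifts were not tested, beyond fewer nuclei, genes or UMIs entering by construction. Of 96 values for single members, 14 moved. With 1 library per condition, differences between depots, animals and preparations cannot be told apart, and Slitrk6 and Gal3st1 rested on at most 15 UMIs in a library.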
